A study of Mus musculus with 12 samples.

Results

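The genes described here are 42 mouse genes of glucose use, lactate handling and the response to low oxygen, chosen by name from the probes of a heart expression array. Of 36968 genes on the array, 19753 were tested, among them all 42. Total RNA of 12 fresh mouse hearts was measured on single-colour (Cy3) Agilent arrays, 1 array a sample, in 4 groups of 3. The WT group held wild-type hearts of strain C57/BL6. The WT+MI group held hearts of the same strain after myocardial infarction (MI), the death of heart muscle after loss of its blood supply. The TG-CCRR group held hearts of mice transgenic for CCRR, known as a cardiac long non-coding RNA, and the TG-CCRR+MI group held such hearts after infarction. The strain of the transgenic mice, the promoter that drives the transgene, the age of the animals, the time between infarction and sampling and the region of the heart that was taken are not stated in the labels, so transgene and strain cannot be told apart. The labels do not say that replicates are different animals, so the p-values here speak only of array-to-array spread within a group, part of which may be technical.

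Heart muscle takes up glucose through membrane carriers, splits it to pyruvate in glycolysis, and either burns the pyruvate in mitochondria or reduces it to lactate, which leaves the cell with a proton. The adult heart draws most of its energy from fatty acids, and it uses muscle forms of several glycolytic enzymes that are encoded by other genes than the forms found in most other cells. When oxygen is low, prolyl hydroxylases no longer mark the HIF alpha subunits for breakdown, and the HIF factors raise the transcription of many glycolytic genes.

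Signals are given as log2 intensity minus the 75th percentile of the array, so 0 is the level of the 75th percentile probe and 1 unit is a 2-fold step. Each gene is read through 1 probe, and levels of different genes are not compared. The 75th percentile signal ran from 198 to 374 intensity units over the 12 arrays, 49.3% to 57.2% of probes were well above background, and the number of arrays limits the precision. All 12 markers of cardiomyocytes were above background on all 12 arrays. No spot carries the name Ccrr, so the transgene itself was not checked. The WT and WT+MI arrays and TG-CCRR 1 and 2 lay on 1 slide, and TG-CCRR 3 and the TG-CCRR+MI arrays lay on a second slide. Some arrays stood apart in marker genes: WT 1 in erythroid genes (median deviation 3.03 on the log2 scale), TG-CCRR 1 in adipocyte genes (5.88), and WT+MI 1 in atrial genes (2.21). TG-CCRR+MI 3 stood apart on the third principal component over the genes tested (-66.9, the other 11 arrays from -7.13 to 16.6). In bulk RNA, fewer cells of a type and less RNA per cell cannot be told apart.

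Infarction in wild-type hearts moved most of these genes, and it moved them in both directions. In WT+MI against WT, 30 of the 42 genes (71.4%) passed an adjusted p of 0.05 in limma, 16 higher and 14 lower. Over all genes tested, 48.1% passed, 18.5% higher and 29.6% lower. The median difference of the 42 genes was -0.15, and that of all genes was -0.15. The arrays of WT+MI and WT did not overlap for 36 of the 42 genes, and those of TG-CCRR+MI and TG-CCRR for 11. The share of all genes without overlap was not counted, here and below, so such counts are not read as a result about the 42. The genes that rose included the glucose carrier Slc2a1, the platelet-type phosphofructokinase Pfkp and the lactate exporter Slc16a3. Those that fell included the insulin-responsive glucose carrier Slc2a4, the muscle phosphofructokinase Pfkm and the muscle phosphoglycerate mutase Pgam2. Of the 30 calls, 23 were kept under each of the alternatives tried, which included leaving out each array in turn.

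In transgenic hearts the rises were fewer and no fall passed the test. In TG-CCRR+MI against TG-CCRR, 8 of the 42 genes rose in limma, where 8.83% of all genes passed and 5.07% were higher. Of all genes 3.76% were lower, and 0 of the 42, which is near that share for so few genes. At an unadjusted p of 0.05 the count was 12 higher and 0 lower. For counts at an unadjusted p, here and below, the share over all genes was not counted. With array weights 1 gene, Epas1, fell (-0.39, adjusted p = 0.0274). The median difference of the 42 was 0.15, against 0.03 over all genes, but without TG-CCRR+MI 3 it was 0.0043 (0.0054 over all genes), without TG-CCRR 1 it was 0.05, and with slide as a block it was 0.06.

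**Figure D1:**
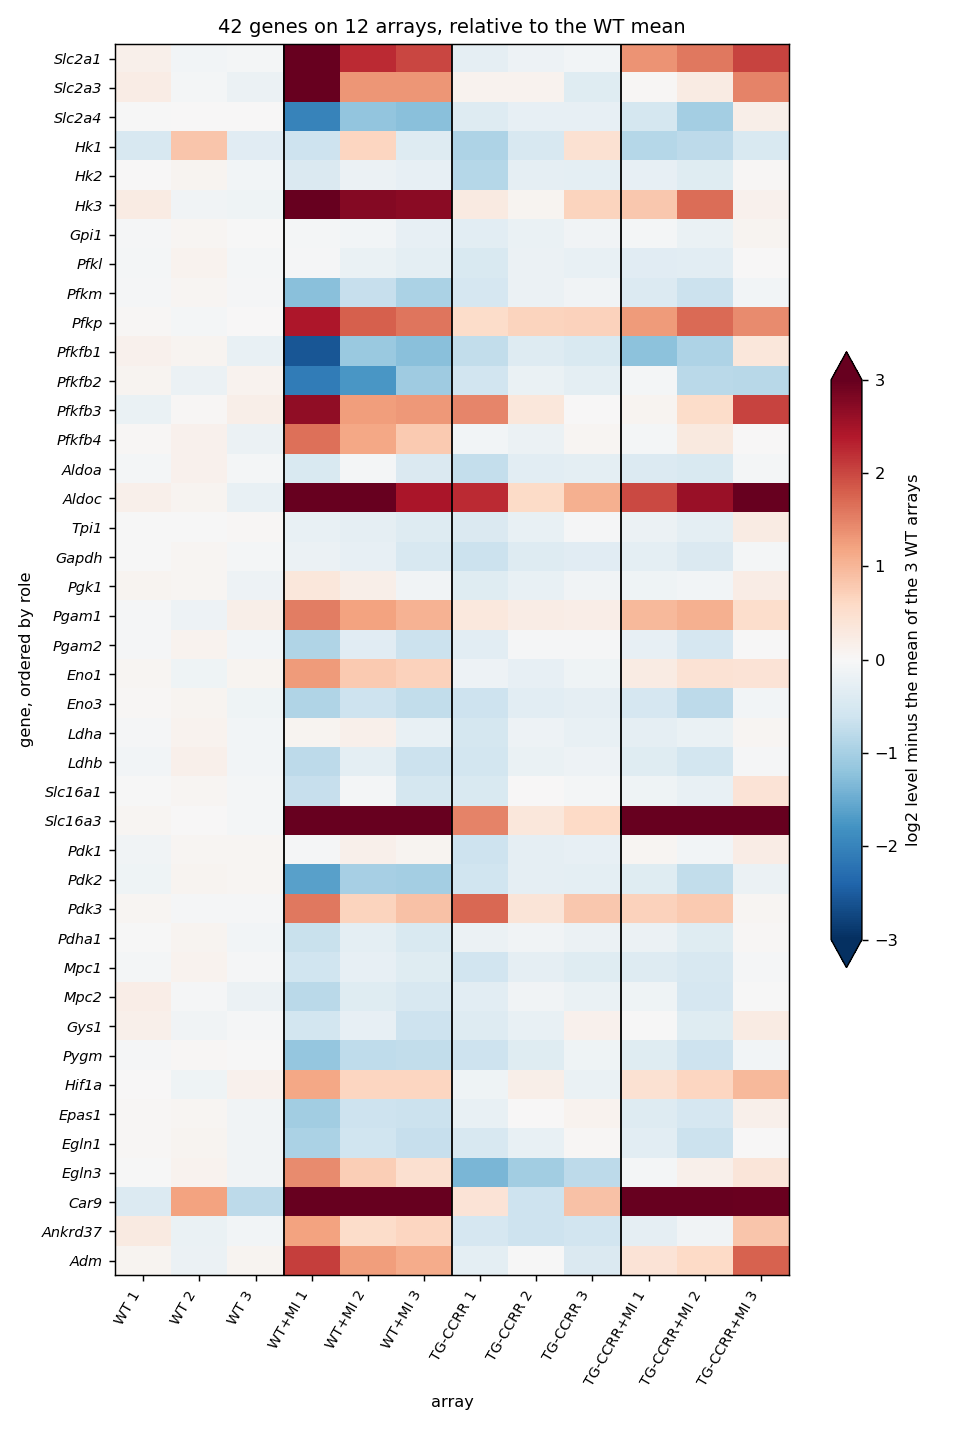
Each cell is the log2 level of 1 of the 42 genes (rows, ordered by role) on 1 of the 12 arrays (columns) minus the mean of the 3 WT arrays, on a colour scale cut at -3 and 3. The WT+MI columns hold dark red rows for genes such as Slc2a1, Hk3, Aldoc, Slc16a3 and Car9 and blue rows for genes such as Slc2a4, Pfkfb1 and Pfkfb2, and WT+MI 1 is the darkest column for many of them.

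The HIF system itself shifted in its subunits and in its sensors. Hif1a, which encodes the oxygen-regulated HIF-1 alpha subunit, rose by 0.82 ± 0.18 (SE) in WT+MI against WT (limma adjusted p = 0.00455), from group levels of 2.66 ± 0.12 to 3.48 ± 0.30 (SD, n = 3). In TG-CCRR+MI against TG-CCRR it rose by 0.74 ± 0.18 (adjusted p = 0.0324), a call lost under 11 of 25 alternatives. Epas1, which encodes the HIF-2 alpha subunit, fell by 0.76 ± 0.18 in WT+MI against WT (adjusted p = 0.00657), and its difference in transgenic hearts was -0.21 ± 0.18 (adjusted p = 0.503). Egln1, the prolyl hydroxylase that sets the steady level of HIF-1 alpha, fell by 0.75 ± 0.18 in wild-type hearts (adjusted p = 0.00681) and differed by -0.09 ± 0.18 in transgenic hearts (adjusted p = 0.803). A further Hif1a probe on the gene's own strand, well above background on 9 arrays, differed by -0.05 in WT+MI against WT and by -1.34 in TG-CCRR against WT. Another Hif1a probe, above background on all 12 arrays, lies on the strand opposite to the gene, so it does not measure the gene's own transcript. It rose by 1.47 in WT+MI against WT.

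Egln3, a prolyl hydroxylase that is itself induced by HIF (probe at chr12:55280953-55281012, mm9), was the gene of the 42 that passed the test between the uninfarcted groups. It lay at 2.37, 2.49 and 2.28 on the WT arrays and at 1.01, 1.34 and 1.59 on the TG-CCRR arrays. These groups did not overlap, which held for 27 of the 42 genes. After infarction Egln3 lay at 3.81, 3.12 and 2.87 in wild-type hearts and at 2.31, 2.53 and 2.75 in transgenic hearts. Each infarcted group thus lay above its own uninfarcted group. The rise was 0.89 ± 0.23 in wild-type hearts (limma adjusted p = 0.0104) and 1.22 ± 0.23 in transgenic hearts (adjusted p = 0.0123).

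Car9, Adm and Ankrd37, classical targets of HIF, rose in infarcted wild-type hearts. Car9, the membrane carbonic anhydrase that acidifies the outside of hypoxic cells (probe at chr4:43526518-43526577, mm9), was not well above background on the WT and TG-CCRR arrays. Its measured level was -5.73, -4.11 and -6.11 in WT and -0.23, -0.93 and -2.05 in WT+MI, and it was at least 9.26-fold higher after infarction (adjusted p = 0.0005). In transgenic hearts it went from -4.90, -5.94 and -4.43 to -1.97, -1.43 and -2.35, at least 4.52-fold higher (adjusted p = 0.0118). These bounds set the mean of the infarcted arrays against the lowest signal well above background on each uninfarcted array. The infarcted and uninfarcted arrays did not overlap in either genotype. The second Car9 probe, well above background on 9 arrays, rose less, by 0.71 in wild-type and 1.04 in transgenic hearts.

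Adm, which encodes the vasodilator peptide adrenomedullin, lay at 0.37, 0.11 and 0.36 in WT and at 2.36, 1.55 and 1.40 in WT+MI. All WT+MI arrays were above all WT arrays, and the rise was 1.49 ± 0.34 (limma adjusted p = 0.0054). In TG-CCRR hearts Adm lay at 0.00, 0.26 and -0.15 and after infarction at 0.69, 0.89 and 2.05, where TG-CCRR+MI 3 was far above the other two, and the difference of 1.18 ± 0.34 did not pass (adjusted p = 0.059). Ankrd37, an ankyrin repeat gene known as a direct HIF-1 target, rose by 0.80 ± 0.27 in wild-type hearts (adjusted p = 0.0344). Its rise lost the call without WT 2 (0.70, adjusted p = 0.106), WT 3 (0.76, 0.0877) or WT+MI 1 (0.59, 0.13). In transgenic hearts its difference was 0.72 ± 0.27 (adjusted p = 0.132).

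The promoters of these genes were read for the HIF core. HIF binds the letters ACGTG or GCGTG, which were searched on both strands (CACGT and CACGC on the other strand) in the 250 bases before each annotated start site, taken from RefSeq on the GRCm38.p6 build. The palindrome CACGTG, also an E-box, counts once on each strand. Of the 42 genes 39 have an entry (not Epas1, Slc2a3 and Slc2a4), with 58 windows, and 35 of the 39 (89.7%) held a core in some window, against 41.5% of 27025 genes. All 15 listed genes that rose in WT+MI against WT held a core, as did 11 of 12 that fell and 9 of 12 that were not called, so a core was also common among genes that fell. By window, 77.6% of the 58 held a core, against 38.6% of all 32851. A core was held by 19 of 19 windows of genes that rose, 15 of 22 of genes that fell and 11 of 17 of genes not called. The core holds a CG, and these windows are rich in it (median 13 CG a window, against 6 over all). Among windows with at least 10 CG, 86.1% of the genes' 36 and 64.2% of all 12417 held a core. A match is a description of the letters, not evidence of binding.

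Shown here are 5 genes with 1 listed start site that rose in WT+MI against WT and are known targets of HIF or carriers and enzymes of the main results, and the pair Pgam1 and Pgam2, whose products catalyse the same step while 1 rose and the other fell. Each line gives the 250 bases before the start site, 5′ to 3′ along the gene, with core matches in capitals. Slc16a3 is at chr11:120948817-120949066, plus strand, Car9 at chr4:43506776-43507025, plus strand, Slc2a1 at chr4:119108495-119108744, plus strand, Pfkp at chr13:6648772-6649021, minus strand, Ankrd37 at chr8:45999851-46000100, minus strand, Pgam1 at chr19:41911621-41911870, plus strand and Pgam2 at chr11:5803797-5804046, minus strand.
Slc16a3: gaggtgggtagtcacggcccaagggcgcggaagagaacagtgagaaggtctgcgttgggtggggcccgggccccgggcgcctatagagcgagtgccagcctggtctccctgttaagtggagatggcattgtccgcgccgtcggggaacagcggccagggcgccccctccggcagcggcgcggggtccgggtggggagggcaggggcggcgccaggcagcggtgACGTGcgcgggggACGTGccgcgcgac
Car9: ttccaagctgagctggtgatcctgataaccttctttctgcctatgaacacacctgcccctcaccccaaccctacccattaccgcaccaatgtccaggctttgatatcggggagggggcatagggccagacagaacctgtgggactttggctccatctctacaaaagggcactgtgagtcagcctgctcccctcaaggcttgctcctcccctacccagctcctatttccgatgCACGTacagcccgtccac
Slc2a1: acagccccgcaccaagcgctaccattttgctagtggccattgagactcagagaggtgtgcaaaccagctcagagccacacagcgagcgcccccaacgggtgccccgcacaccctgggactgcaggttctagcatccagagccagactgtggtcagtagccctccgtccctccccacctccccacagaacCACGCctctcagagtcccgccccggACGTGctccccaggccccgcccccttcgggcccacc
Pfkp: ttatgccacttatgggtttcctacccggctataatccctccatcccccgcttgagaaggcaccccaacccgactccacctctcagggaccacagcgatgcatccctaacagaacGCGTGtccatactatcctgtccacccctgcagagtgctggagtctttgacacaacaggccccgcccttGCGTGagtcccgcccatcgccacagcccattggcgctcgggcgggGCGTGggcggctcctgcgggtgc
Ankrd37: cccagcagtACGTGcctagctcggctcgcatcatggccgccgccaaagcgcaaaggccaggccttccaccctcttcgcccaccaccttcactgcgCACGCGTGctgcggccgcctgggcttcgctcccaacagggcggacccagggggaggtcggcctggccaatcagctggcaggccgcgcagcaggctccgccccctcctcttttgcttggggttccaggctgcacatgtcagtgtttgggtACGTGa
Pgam1: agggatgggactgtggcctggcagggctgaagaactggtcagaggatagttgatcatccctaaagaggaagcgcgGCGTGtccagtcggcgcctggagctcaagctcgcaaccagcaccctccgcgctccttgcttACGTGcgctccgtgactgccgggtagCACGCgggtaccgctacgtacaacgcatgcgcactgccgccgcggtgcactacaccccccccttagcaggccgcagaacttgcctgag
Pgam2: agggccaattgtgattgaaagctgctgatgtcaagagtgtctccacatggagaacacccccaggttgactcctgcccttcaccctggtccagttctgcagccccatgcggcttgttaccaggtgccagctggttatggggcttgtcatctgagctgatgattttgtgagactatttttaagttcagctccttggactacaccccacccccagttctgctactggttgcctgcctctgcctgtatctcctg

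In Slc16a3 both matches are ACGTG within 27 bases of the start site. In Car9 the single match lies 18 bases before the start, on the other strand. Ankrd37 has 4 matches, of which a pair overlaps, and Pgam1 has 3. Pgam2 has none in this window and 1 CG, which says only that these letters are not there. It is not typical of the genes that fell: the 11 of 12 with a core include the muscle forms Pfkm and Eno3.

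**Figure D2:**
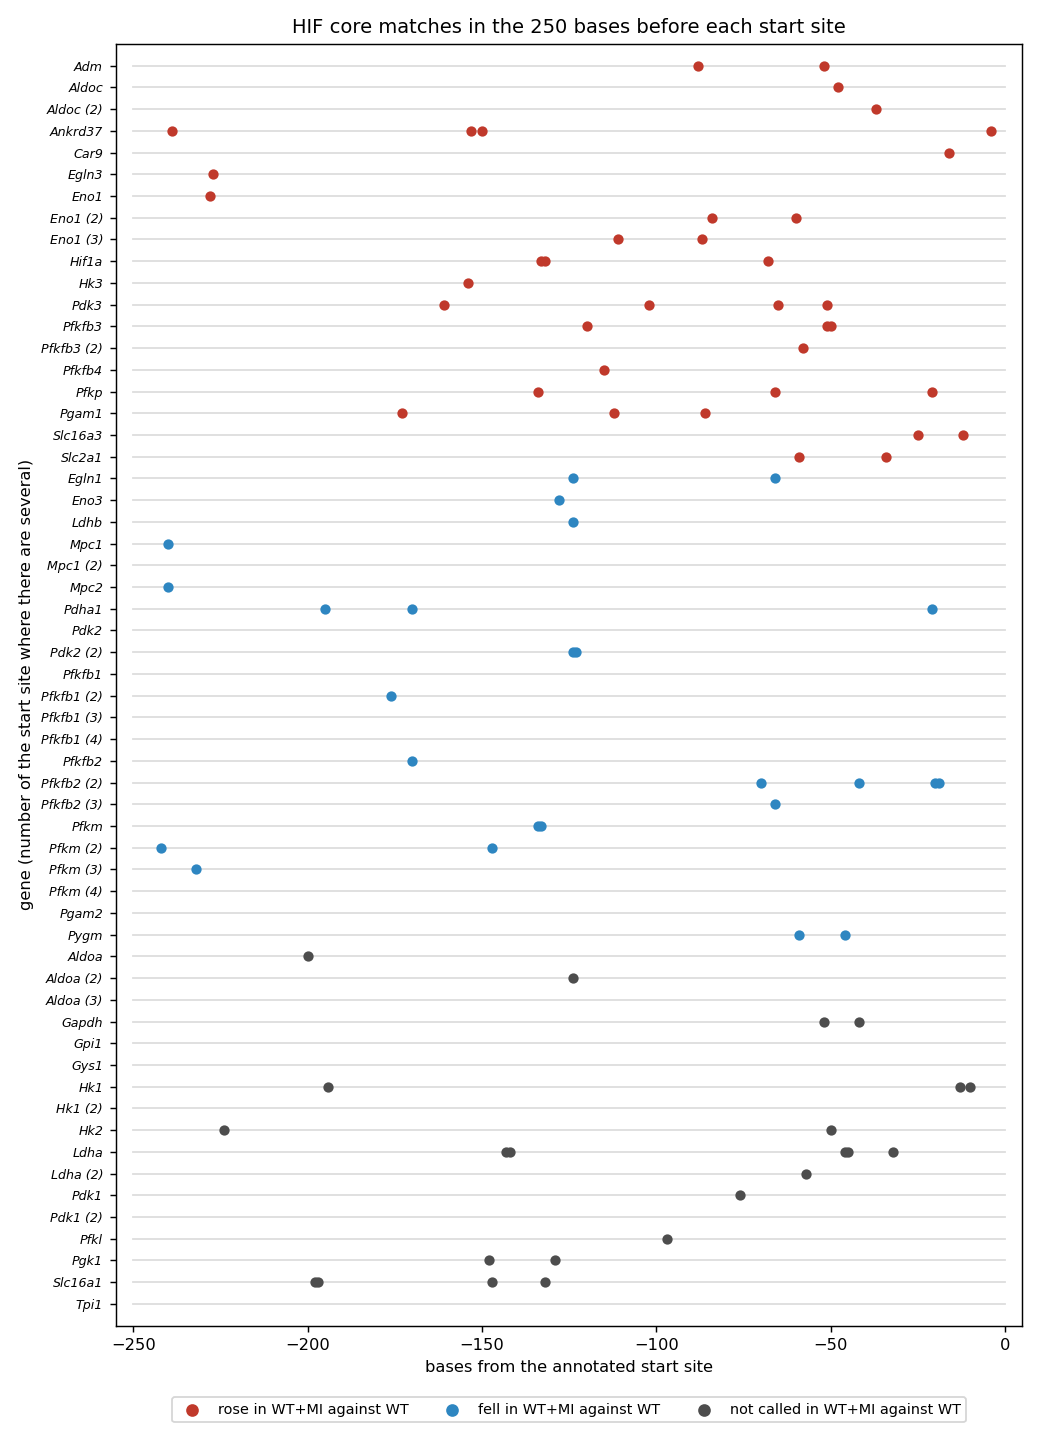
Each line is the 250 bases before 1 annotated start site (x axis, bases from the start site) of 1 of 39 genes, and each point is a match to the HIF core on either strand. Red points (genes that rose in WT+MI against WT), blue points (fell) and dark grey points (not called) are spread over the window, and 45 of the 58 windows hold at least 1 point.

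Among the glucose carriers, Slc2a1 and Slc2a3 rose and Slc2a4 fell in wild-type hearts. Slc2a1 encodes GLUT1, the carrier of most cells for basal uptake, and its probe lies at chr4:118809864-118809923 (mm9). It lay at 1.88, 1.66 and 1.68 in WT and at 4.78, 3.97 and 3.75 in WT+MI, and at 1.47, 1.58 and 1.65 in TG-CCRR and 3.09, 3.31 and 3.77 in TG-CCRR+MI. Each infarcted group lay wholly above its uninfarcted group, by 2.43 ± 0.25 or 5.38-fold in wild-type (limma adjusted p = 0.000116) and by 1.82 ± 0.25 or 3.54-fold in transgenic hearts (adjusted p = 0.00268).

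Slc2a4 encodes GLUT4, the carrier that insulin brings to the surface of muscle cells, and its probe lies at chr11:69756073-69756132 (mm9). It lay at 6.61, 6.63 and 6.64 in WT and at 4.62, 5.44 and 5.37 in WT+MI. The WT+MI arrays were all lower, and it fell by 1.48 ± 0.28 (limma adjusted p = 0.002), a 2.79-fold fall. The TG-CCRR arrays stood at 6.25, 6.39 and 6.39, and the TG-CCRR+MI arrays at 6.10, 5.61 and 6.79, where the third array was above every TG-CCRR array. The difference there was -0.17 ± 0.28 (adjusted p = 0.74).

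Slc2a3 encodes GLUT3, a high-affinity carrier prominent in neurons and white blood cells. It lay at -2.44, -2.72 and -2.85 in WT and at 0.32, -1.35 and -1.36 in WT+MI, with WT+MI 1 far above the rest. It rose by 1.87 ± 0.46 (limma adjusted p = 0.00781). TG-CCRR arrays gave -2.57, -2.56 and -3.03 and TG-CCRR+MI arrays -2.63, -2.42 and -1.18, groups that overlapped (0.64 ± 0.46, adjusted p = 0.422).

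Among the hexokinases, which trap glucose as glucose 6-phosphate, Hk3 rose and the heart's main forms did not pass. Hk3, the form of white blood cells, is read by a probe at chr13:55107377-55107436 (mm9) and lay at -1.27, -1.61 and -1.64 in WT and at 2.30, 1.26 and 1.20 in WT+MI. All 3 infarcted arrays were far above the others, by 3.09 ± 0.38 or 8.53-fold (limma adjusted p = 0.000298). Transgenic hearts gave -1.22, -1.42 and -0.85 before and infarction -0.69, 0.18 and -1.38 after it, which overlapped (0.53 ± 0.38, adjusted p = 0.42). Hk1 and Hk2 differed by -0.12 ± 0.44 and -0.29 ± 0.16 in WT+MI against WT (adjusted p = 0.844 and 0.16).

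At the first committed step Pfkp rose and Pfkm fell in wild-type hearts. Whether isoforms were exchanged within cells was not tested. Pfkp, the platelet-type phosphofructokinase, is read at chr13:6580589-6580648 (mm9) and lay at 1.91, 1.82 and 1.89 in WT and at 4.29, 3.67 and 3.48 in WT+MI. It lay at 2.43, 2.53 and 2.55 in TG-CCRR and at 3.14, 3.56 and 3.28 in TG-CCRR+MI, so the uninfarcted transgenic arrays lay between WT and the infarcted groups, although their difference from WT did not pass (0.63 ± 0.19, limma adjusted p = 0.113). The rise was 1.95 ± 0.19 in wild-type (limma adjusted p = 9.18e-05) and 0.82 ± 0.19 in transgenic hearts (adjusted p = 0.0241). The transgenic call was lost under 8 of 25 alternatives. The 4 Pfkp probes above background on all arrays rose by 1.95 to 2.70 in wild-type hearts. Pfkm, the muscle form, fell by 0.97 ± 0.18 in wild-type hearts (adjusted p = 0.00184), a 1.96-fold fall, and differed by -0.12 ± 0.18 in transgenic hearts (adjusted p = 0.727). Pfkl, the liver form, differed by -0.17 ± 0.13 (adjusted p = 0.296), while another of its probes, designed to a different transcript, had a difference of 1.65. With the mean over its probes Pfkl rose by 0.61 (adjusted p = 0.0283).

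The 4 enzymes that make and break fructose 2,6-bisphosphate, the strongest activator of phosphofructokinase, split into a pair that rose and a pair that fell. Pfkfb3, the inducible form with high kinase activity, lay at 0.19, 0.44 and 0.57 in WT and at 3.05, 1.66 and 1.71 in WT+MI. The WT+MI arrays were all higher, by 1.74 ± 0.54 (limma adjusted p = 0.0224), but the call was lost without WT 1 (1.64, adjusted p = 0.0648), WT 2 (1.76, 0.0527) or WT+MI 1 (1.29, 0.0911). In transgenic hearts its levels of 1.86, 0.74 and 0.40 overlapped those after infarction, at 0.48, 0.95 and 2.42 (0.28 ± 0.54, adjusted p = 0.786).

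Pfkfb4, another HIF-inducible form, lay at -0.58, -0.48 and -0.80 in WT and at 1.02, 0.54 and 0.15 in WT+MI, with no overlap. It rose by 1.19 ± 0.20 (limma adjusted p = 0.00105). The transgenic arrays read -0.69, -0.79 and -0.57 without infarction and, with it, -0.68, -0.33 and -0.61, which overlapped (0.14 ± 0.20, adjusted p = 0.698).

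Pfkfb2, the form of heart muscle that insulin signalling activates, lay at 2.79, 2.53 and 2.82 in WT and at 0.62, 0.96 and 1.64 in WT+MI. All infarcted arrays were lower, and it fell by 1.64 ± 0.27 (limma adjusted p = 0.00102), a 3.11-fold fall. In TG-CCRR it lay at 2.15, 2.51 and 2.42 and after infarction at 2.65, 1.90 and 1.87, which overlapped (-0.22 ± 0.27, adjusted p = 0.657). Pfkfb1, the form of liver and skeletal muscle, lay at 2.58, 2.53 and 2.24 in WT and at -0.12, 1.35 and 1.19 in WT+MI, where WT+MI 1 was the lowest. It fell by 1.65 ± 0.43 (adjusted p = 0.00995). In transgenic hearts it lay at 1.71, 2.07 and 1.99 and at 1.21, 1.53 and 2.78 after infarction, with TG-CCRR+MI 3 above every other array of both groups (-0.09 ± 0.43, adjusted p = 0.925).

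Of the remaining enzymes of upper glycolysis, Aldoc, the brain form of aldolase, rose in wild-type hearts. It lay at -3.91, -4.00 and -4.30 in WT and at -0.38, -1.04 and -1.62 in WT+MI, with no overlap, a rise of 3.06 ± 0.48 (limma adjusted p = 0.000805). In TG-CCRR it lay at -1.84, -3.49 and -3.01, with TG-CCRR 1 the highest, and after infarction at -2.10, -1.49 and -0.53 (1.41 ± 0.48, adjusted p = 0.0951). Its probe was well above background on 2 of the 3 WT arrays and on the other 9 arrays, so the WT mean holds a value at background. Gpi1, Aldoa (the muscle aldolase) and Tpi1, which carry the main flux, differed by -0.13 to -0.32 in WT+MI against WT and were not called.

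In lower glycolysis the broadly expressed forms of the mutase and enolase rose and the muscle forms fell in wild-type hearts. Pgam1, the broadly expressed phosphoglycerate mutase, lay at 3.69, 3.57 and 3.91 in WT and at 5.26, 4.94 and 4.76 in WT+MI, and at 4.04, 3.94 and 3.92 in TG-CCRR and 4.68, 4.78 and 4.26 in TG-CCRR+MI. The infarcted arrays were higher in both genotypes, by 1.26 ± 0.17 (limma adjusted p = 0.000396) and by 0.61 ± 0.17 (adjusted p = 0.0498). The call in transgenic hearts was lost under 19 of 25 alternatives. Pgam2, the muscle mutase, fell by 0.63 ± 0.17 in wild-type hearts (adjusted p = 0.0119) and differed by -0.12 ± 0.17 in transgenic hearts (adjusted p = 0.698). Eno1, the broadly expressed enolase, rose by 0.92 ± 0.15 in wild-type (adjusted p = 0.0009) and 0.55 ± 0.15 in transgenic hearts (adjusted p = 0.0455). Its transgenic call was also lost under 19 of 25 alternatives. Eno3, the muscle enolase, fell by 0.75 ± 0.18 in wild-type hearts (adjusted p = 0.00613), with -0.05 ± 0.18 in transgenic hearts (adjusted p = 0.899). Gapdh and Pgk1, which have no such partner here, differed by -0.30 ± 0.13 (adjusted p = 0.0857) and 0.13 ± 0.15 (adjusted p = 0.468) in WT+MI against WT.

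**Figure D3:**
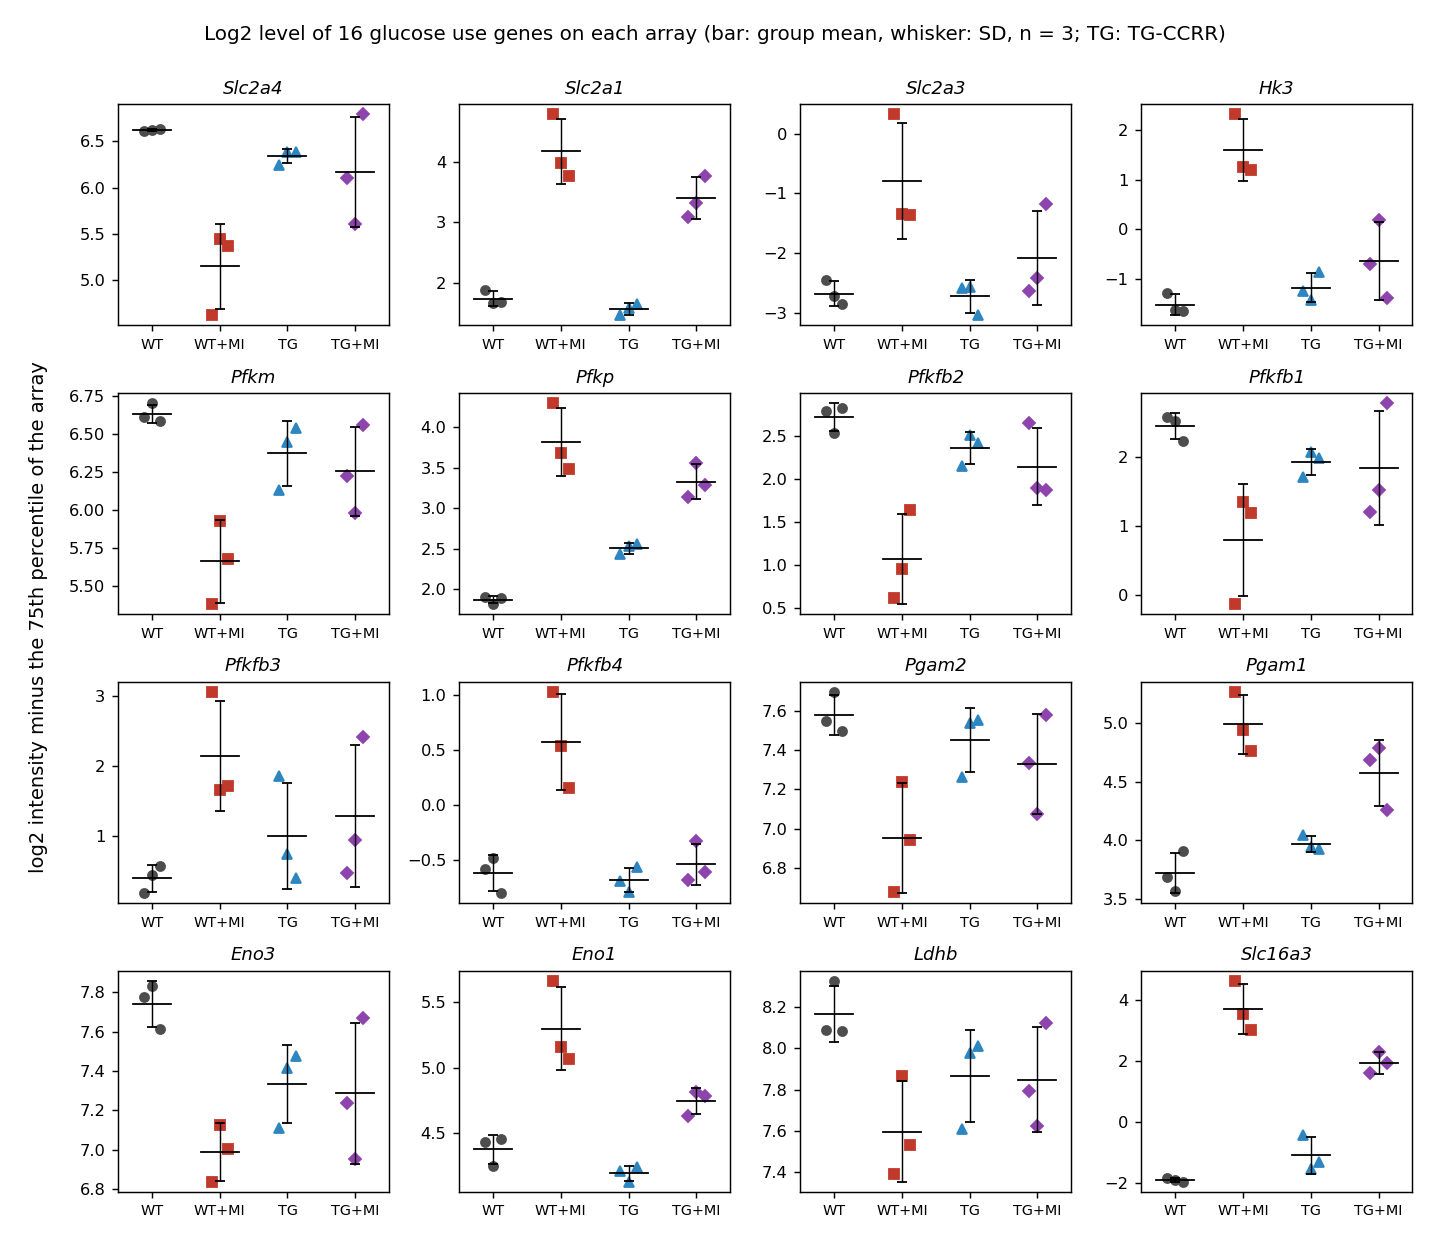
Each panel gives the log2 intensity of 1 gene minus the 75th percentile of the array (y axis, own scale in each panel) on the 12 arrays in 4 groups, with the mean as a bar and the SD as whiskers (n = 3). In WT+MI the points of Slc2a1, Pfkp, Pgam1 and Eno1 lie above WT and those of Slc2a4, Pfkm, Pgam2 and Eno3 lie below WT, without overlap.

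The lactate genes were dominated by Slc16a3, which encodes MCT4, the low-affinity exporter of glycolytic cells. Its probe lies at chr11:120820023-120820082 (mm9). It lay at -1.83, -1.87 and -1.95 in WT and at 4.61, 3.54 and 3.00 in WT+MI, and at -0.41, -1.54 and -1.29 in TG-CCRR and 1.59, 2.30 and 1.93 in TG-CCRR+MI. The 4 groups did not overlap: WT was lowest, then TG-CCRR, TG-CCRR+MI and WT+MI. The rise was 5.60 ± 0.39 or 48.6-fold in wild-type hearts (limma adjusted p = 2.77e-05), the largest of the 42, and 3.02 ± 0.39 or 8.12-fold in transgenic hearts (adjusted p = 0.00216). A second Slc16a3 probe was above background on none of the 12 arrays.

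Of the enzymes that convert lactate and pyruvate, Ldha was not called and Ldhb fell in wild-type hearts. Ldha, the form that favours lactate, differed by -0.01 ± 0.15 in WT+MI against WT (limma adjusted p = 0.976) and by 0.16 ± 0.15 in transgenic hearts (adjusted p = 0.53). Ldhb, the heart form that favours pyruvate, fell by 0.57 ± 0.17 in wild-type hearts (adjusted p = 0.0208), a call that was lost without WT 2 (-0.49, adjusted p = 0.076), WT+MI 1 (-0.47, 0.0779) or WT+MI 3 (-0.54, 0.0534). A second Ldhb probe, above background on all 12 arrays, differed by -1.01. Slc16a1, which encodes the carrier MCT1, differed by -0.42 ± 0.21 (adjusted p = 0.114).

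At the entry of pyruvate into mitochondria, 4 of 6 genes fell and 1 rose in WT+MI against WT. In transgenic hearts 0 of the 6 were called, where 8.83% of all genes were, and the range was -0.46 to 0.45. Pdk2, a kinase that switches off pyruvate dehydrogenase and is abundant in heart, lay at 4.27, 4.49 and 4.45 in WT and at 2.77, 3.41 and 3.39 in WT+MI. All infarcted arrays were lower, and it fell by 1.21 ± 0.20 (limma adjusted p = 0.000953). In TG-CCRR it lay at 3.81, 4.12 and 4.12 and after infarction at 4.03, 3.66 and 4.22, which overlapped (-0.04 ± 0.20, adjusted p = 0.916). Pdk3, a kinase form that hypoxia is known to induce, lay at -1.94, -2.04 and -2.04 in WT and at -0.43, -1.35 and -1.13 in WT+MI. It rose by 1.04 ± 0.34 (adjusted p = 0.0271), but the adjusted p was 0.0566 without WT 1, 0.0667 without WT 2, 0.0663 without WT 3 and 0.107 without WT+MI 1. In TG-CCRR it lay at -0.28, -1.61 and -1.21, with TG-CCRR 1 far above the other two, and after infarction at -1.31, -1.23 and -1.94 (-0.46 ± 0.34, adjusted p = 0.428).

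The enzyme and carriers themselves changed by less. Pdha1, the catalytic subunit of pyruvate dehydrogenase, fell by 0.47 ± 0.13 in wild-type hearts (limma adjusted p = 0.0118), but by 0.32 (0.078) with the mean over its probes, of which the second differed by -0.17. The mitochondrial pyruvate carriers Mpc1 and Mpc2 fell by 0.41 ± 0.14 (adjusted p = 0.0369) and 0.55 ± 0.16 (adjusted p = 0.0193). The Mpc1 call was lost without WT 1 (adjusted p = 0.0623), WT 2 (0.118), WT 3 (0.0692), WT+MI 1 (0.128) or WT+MI 3 (0.0605), and the Mpc2 call without WT 1 (0.0765) or WT+MI 1 (0.0744). Pdk1, which HIF-1 is known to induce, differed by 0.07 ± 0.13 (adjusted p = 0.682) in wild-type and by 0.45 ± 0.13 (adjusted p = 0.0549) in transgenic hearts. In transgenic hearts Pdha1, Mpc1 and Mpc2 differed by -0.01 to 0.09, each with an SE of 0.13 to 0.16. For glycogen, Pygm, the muscle phosphorylase that releases glucose units, fell by 0.89 ± 0.17 in wild-type hearts (adjusted p = 0.00238), and Gys1, the muscle synthase, differed by -0.47 ± 0.19 (adjusted p = 0.0591).

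**Figure D4:**
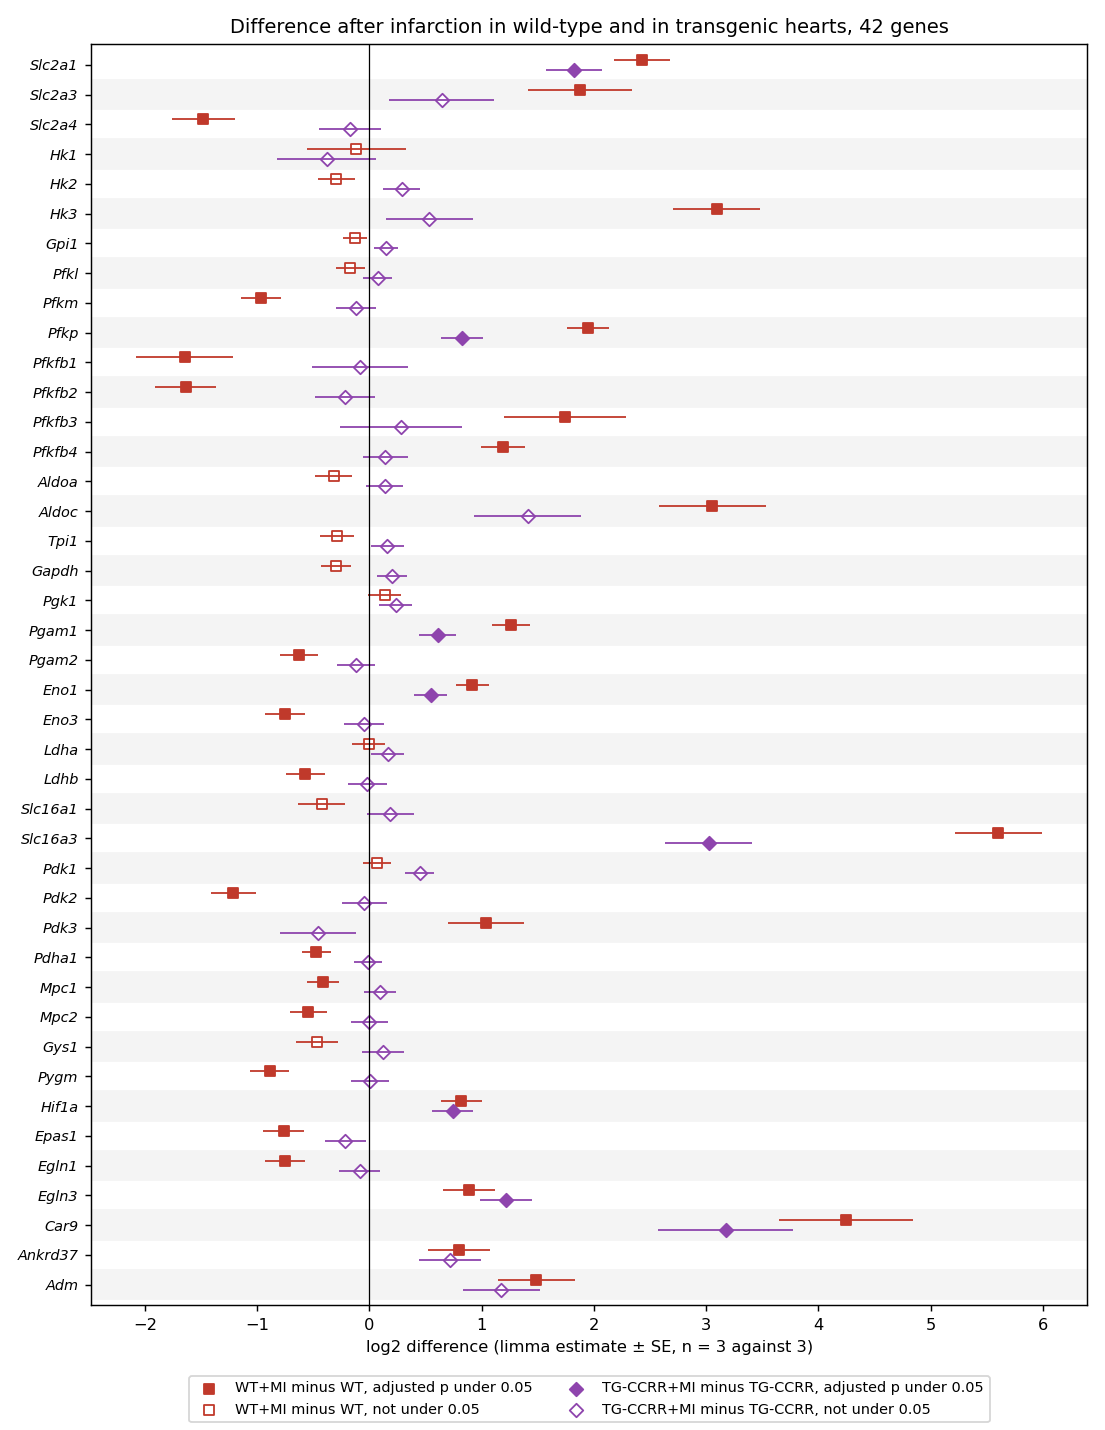
Log2 differences (x axis, limma estimate with its SE, n = 3 against 3) of the 42 genes (y axis) in WT+MI against WT (red squares) and TG-CCRR+MI against TG-CCRR (purple diamonds), filled where the adjusted p was under 0.05. Filled squares stand on both sides of 0, from -1.65 for Pfkfb1 to 5.60 for Slc16a3, while the 8 filled diamonds lie to the right of 0.

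The infarction differences of the 2 genotypes use different arrays and can be set side by side. Of the 16 genes that rose in wild-type hearts, 15 had a positive difference in transgenic hearts and 8 were called, with a median of 0.73 against 1.61 in wild-type hearts. Of the 14 that fell in wild-type hearts, 12 had a negative difference in transgenic hearts, with a median of -0.07 against -0.76. Of the 14, 0 were called lower, where 3.76% of all genes were, and 0 had an unadjusted p under 0.05. Without infarction all 14 had a negative difference in TG-CCRR against WT, with a median of -0.29 (-0.07 over all genes). None of the 14 was called there, where 2.57% of all genes were. Of the 16 that rose, 8 had a negative difference in TG-CCRR against WT. The part of this uninfarcted difference in the transgenic response was not tested. These sets were chosen by their call in wild-type hearts, which favours larger values there. In TG-CCRR+MI against TG-CCRR the slide was part of the comparison. With slide as a block, which then rests on TG-CCRR 3, 1 gene was called (Slc16a3, 3.23 ± 0.57, limma adjusted p = 0.0468), and the other 7 kept their positive sign with adjusted p from 0.0796 to 0.384. With TG-CCRR 3 alone against the 3 infarcted arrays of its slide, a fit in which the lone array is assumed to vary like the others, 0 were called in limma and 8 of the 42 had an unadjusted p under 0.05. These included Hk1 (-1.15) and Aldoc, which were not among the 8 called genes, and lacked Eno1 and Pgam1. Slc16a3 differed by 3.23 there. The number called was 3 without TG-CCRR 1 (3.78% of all genes), 5 without TG-CCRR 2 (5.01%) and 4 without TG-CCRR 3 (5.69%). It was 3 without TG-CCRR+MI 2 (3.44%), and 5 without WT 1 (6.50%), whose array enters through the shared spread.

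The difference between the 2 infarction responses was tested as an interaction, the response in transgenic minus that in wild-type hearts. It passed for 6 of the 42 genes, where 7.93% of all genes passed, 4.92% positive and 3.01% negative. At an unadjusted p of 0.05 it was 22 of the 42, for which the share over all genes was not counted. It was negative for Slc16a3 (-2.58 ± 0.55, limma adjusted p = 0.0369), Hk3 (-2.56 ± 0.54, 0.0365), Pfkp (-1.12 ± 0.26, 0.0409) and Pfkfb4 (-1.05 ± 0.28, 0.0482), of which Slc16a3 and Pfkp also passed in transgenic hearts alone. It was positive for Pfkfb2 (1.42 ± 0.38, 0.049) and Pdk2 (1.17 ± 0.28, 0.0417), neither of which was called in transgenic hearts. The split of 2 positive to 4 negative was 3 to 3 with array median scaling and 4 to 4 with normexp background correction. With slide as a block these 6 kept their direction, with values of -2.37 ± 0.70 for Slc16a3 and -2.87 ± 0.68 for Hk3, but 0 passed (adjusted p from 0.183 to 0.255), where 3 of all 19753 genes did, and 8 of the 42 had an unadjusted p under 0.05. The count was also 0 without WT 1, WT 2, WT 3, TG-CCRR 1, TG-CCRR 2 or TG-CCRR+MI 1, where 0.258% to 0.835% of all genes passed. It was 1 without WT+MI 2 (2.81% of all genes) or TG-CCRR+MI 3 (3.91%), 2 without WT+MI 1 (1.80%) and 11 without TG-CCRR+MI 2 (13.6%).

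Infarcted transgenic and infarcted wild-type hearts shared no slide, so their comparison cannot be told apart from a slide effect. In TG-CCRR+MI against WT+MI, 7 of the 42 genes were called, 3 higher and 4 lower, where 10.5% of all genes were called, 5.97% higher and 4.49% lower. Hk3 was lower by a log2 difference of -2.22 ± 0.38 (limma adjusted p = 0.0233), Slc16a3 by -1.78 ± 0.39 (0.0316), Pfkfb4 by -1.11 ± 0.20 (0.0233) and Eno1 by -0.55 ± 0.15 (0.0437). Pfkfb2 was higher by 1.07 ± 0.27 (0.0397), Slc2a4 by 1.02 ± 0.28 (0.0458) and Pdk2 by 0.78 ± 0.20 (0.0391). Eno1 lay at 5.66, 5.16 and 5.07 in WT+MI and at 4.63, 4.82 and 4.78 in TG-CCRR+MI. The arrays of the groups did not overlap for 11 of the 42 genes. Among them were the 7 called, which were picked by their difference on the same arrays. The split of 3 higher to 4 lower was 7 to 3 with array median scaling, 6 to 4 with normexp and 7 to 6 in the authors' deposited table. With slide as a block, 0 of all 19753 genes and so 0 of the 42 were called in limma (adjusted p of the 7 from 0.649 to 0.701, with 4 of the 42 at an unadjusted p under 0.05), while all 7 kept their direction, at -2.69 ± 0.71 for Hk3 and -1.46 ± 0.73 for Slc16a3. The number was 0 without WT+MI 1 (0.233% of all genes), TG-CCRR+MI 1 (0%) or TG-CCRR+MI 3 (0.0152%), and 11 without TG-CCRR+MI 2 (17.4%). It was 2 without WT 2 (2.61%), WT 3 (2.99%) or WT+MI 2 (3.37%), and 3 without WT 1 (4.01%), TG-CCRR 2 (5.07%) or TG-CCRR 3 (5.97%).

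Without infarction the transgenic and wild-type hearts differed in 1 of the 42 genes, where 2.57% of all genes passed in limma (1.39% higher, 1.18% lower). An unadjusted p under 0.05 was found for 10 of the 42, and the share over all genes was not counted. Egln3 differed by -1.06 ± 0.23 (adjusted p = 0.0416). With slide as a block it was -1.20 ± 0.25 (adjusted p = 0.0533), and on the slide that holds both groups its adjusted p was 0.0717, so the call did not hold in either. It was also lost with normexp (-0.84) and without WT 1, 2 or 3, WT+MI 2, TG-CCRR 1, 2 or 3, or TG-CCRR+MI 1 or 2, with values from -1.20 to -0.84 over the alternatives tried. Without WT+MI 1 the number of genes called was 2, where 3.32% of all genes passed. Of the 42 genes 34 had a negative difference, with a median of -0.23 against -0.07 over all genes. That median was -0.08 with quantile normalization (-0.03 over all genes), -0.09 in the authors' deposited table (-0.04) and -0.15 without TG-CCRR 1 (-0.04). Aldoc was 1.29 ± 0.48 higher (adjusted p = 0.192), Pdk3 0.97 ± 0.34 (0.166) and Slc16a3 0.80 ± 0.39 (0.307), none of which passed. The summed level of atrial markers was 38.8 to 39.9 in WT and 328 to 1042 in TG-CCRR, and that of fibroblast markers 186 to 212 and 256 to 343, in units of the 75th percentile signal. Erythroid sums were 1145 to 1745 and 466 to 836, 3 of 12 neutrophil markers were lower, and 8 adipocyte markers had a median difference of 3.67 with none called in limma. Cardiomyocyte sums were 2791 to 3574 in WT and 2076 to 2584 in TG-CCRR. The 12 cardiomyocyte markers had a median difference of -0.37 (-0.07 over all genes), with 0 called in limma. The part of these markers in the differences was not tested.

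Markers of other cells moved with infarction too. Over all genes 18.5% were higher and 29.6% lower in WT+MI against WT, and 4.49% were lower in TG-CCRR+MI against WT+MI. In TG-CCRR+MI against TG-CCRR 5.07% were higher and 3.76% lower. Of 12 tested neutrophil markers, 7 rose and 2 fell in WT+MI against WT, and 5 were lower in TG-CCRR+MI against WT+MI. Their summed level was 98.6 to 110 in WT, 267 to 388 in WT+MI, 81.9 to 88.1 in TG-CCRR and 135 to 148 in TG-CCRR+MI, and Mmp9 and Cxcr2 were below background on all WT arrays. Of 17 monocyte and macrophage markers, 5 rose in WT+MI against WT and 5 were lower in TG-CCRR+MI against WT+MI, with summed levels of 161 to 173, 185 to 265, 177 to 209 and 180 to 195 in the same order. Between TG-CCRR and TG-CCRR+MI, 5 neutrophil markers rose and 6 of 10 fibroblast markers fell, the latter from a summed level of 256 to 343 to one of 156 to 161. In the wild-type comparison 5 of 9 erythroid markers fell (summed level 1145 to 1745 in WT and 743 to 931 in WT+MI) and 4 of 10 fibroblast markers fell (186 to 212 and 121 to 156). Of 5 atrial markers 1 rose, near the share over all genes (summed level 38.8 to 39.9 and 164 to 466). The median atrial deviation was 2.21 on WT+MI 1, but -1.77 and -1.70 on WT+MI 2 and 3, against -2.18 to -1.66 in WT. Of 12 cardiomyocyte markers, 5 fell in WT+MI against WT, with a summed level of 2791 to 3574 in WT and 2147 to 2909 in WT+MI. These markers moved beside Hk3, Slc2a3 and Slc16a3, which rose, and Slc2a4, Pfkm and Pgam2, which fell, and their part in those results was not tested.

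**Figure D5:**
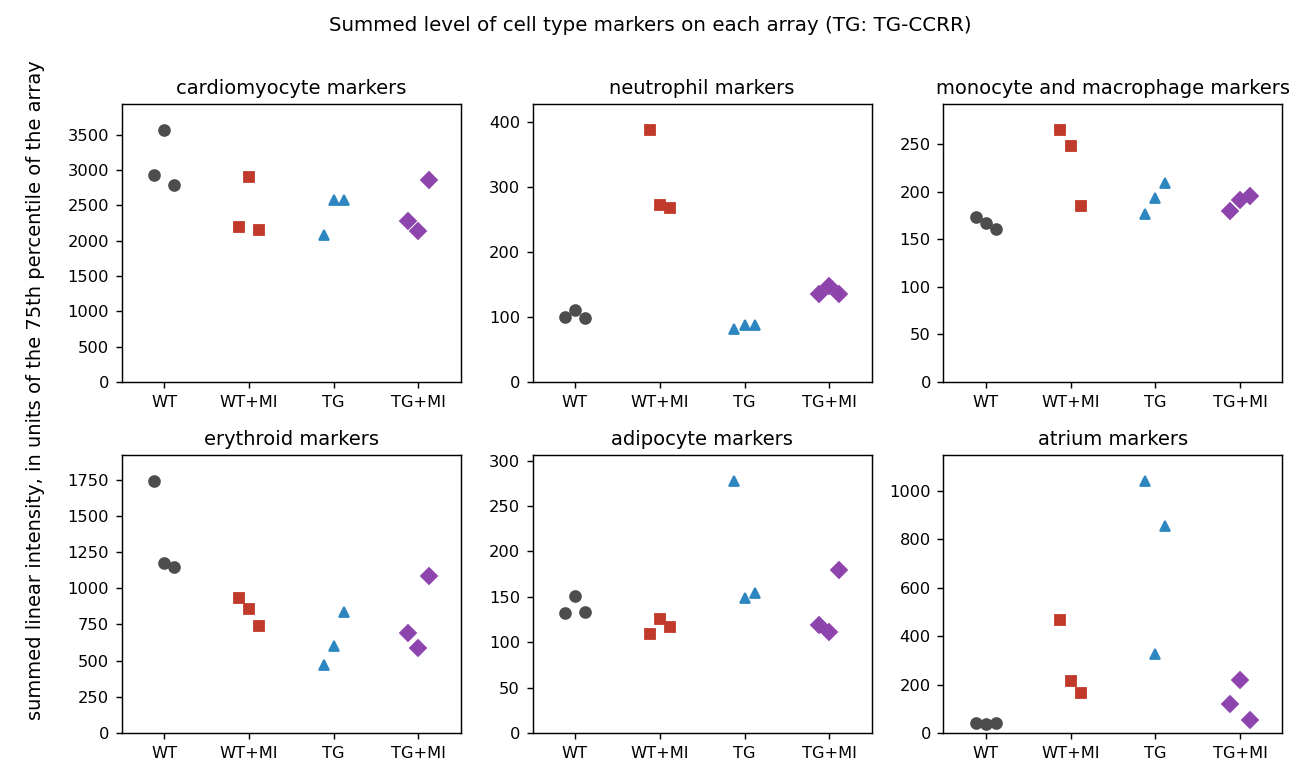
Each panel sums the linear intensity of the markers of 1 cell type on each of the 12 arrays, in units of the 75th percentile signal of the array (y axis from 0). Neutrophil markers reach 267 to 388 in WT+MI and 135 to 148 in TG-CCRR+MI, above both uninfarcted groups, and atrial markers reach 328 to 1042 in TG-CCRR, against 38.8 to 39.9 in WT.

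The patterns most like those of the 4 genes with the largest change in WT+MI against WT were found by Pearson correlation over the 12 arrays, as a description over arrays that share groups and slides. Slc16a3 was closest to Rab44 (0.992) and Csf2rb2 (0.990), and Hk3 to Nfam1 (0.994) and Slc11a1 (0.993). Car9 was closest to the transcript named CB590485 (0.983) and to Fam8a1 (0.976), and Aldoc to Zfp469 (0.977) and Agt (0.976).

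Neighbouring pathways, from lists chosen by function, are given for WT+MI against WT by their counts, to be read against 18.5% higher and 29.6% lower over all genes. Of 11 genes of the pentose phosphate pathway, which makes NADPH and ribose from glucose 6-phosphate, 5 rose and 2 fell, among them G6pdx (1.29 ± 0.20, limma adjusted p = 0.000694) and Pgd (1.18 ± 0.16, 0.000419), the oxidative enzymes, and Tkt (1.08 ± 0.34, 0.0245). Of 15 further genes of glucose entry and glycolysis, 2 rose and 4 fell, with Slc2a6, a sugar carrier, at 3.79 ± 0.54 (0.000519). Of 21 further glycogen genes, 3 rose and 11 fell. Pygl, the liver phosphorylase, rose by 2.18 ± 0.52 (0.00618), while Phkg1, a catalytic subunit of the muscle phosphorylase kinase, fell by 1.66 ± 0.24 (0.000605).

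Of 17 further lactate and pyruvate genes, 3 rose and 10 fell. Emb, the partner protein of some lactate carriers, rose by 3.43 ± 0.58 (limma adjusted p = 0.00119), Pdk4 rose by 1.45 ± 0.43 (0.0175), and the phosphatase Pdp1, which activates pyruvate dehydrogenase, fell by 1.35 ± 0.21 (0.000786). Of 36 further hypoxia response genes, 12 rose and 5 fell, among them Angptl4 (4.21 ± 0.46, 0.000165) and Lox (3.00 ± 0.40, 0.000413). The interaction passed for Angptl4 (-3.89 ± 0.65, 0.0233) and Emb (-3.16 ± 0.82, 0.0467), whose differences in transgenic hearts were 0.32 ± 0.46 (0.708) and 0.26 ± 0.58 (0.815). With slide as a block 3 of 19753 genes passed the interaction. In TG-CCRR against WT, 4 of the 36 hypoxia response genes were higher (1.39% of all genes were), among them Angptl4 (2.53 ± 0.46, 0.0209) and Ddit4 (2.38 ± 0.45, 0.0239). Adipocyte markers (0 of 8 called in limma) and atrial markers (2 of 5 higher) had median differences of 3.67 and 6.91 in the same comparison, and their part in it was not tested.

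The probes of a gene did not always move together. Of 16 genes with several probes on the gene's own strand above background on all 12 arrays, 4 (Hk1, Pfkl, Ldha and Pdk1) had a probe whose difference in WT+MI against WT had the opposite sign to that of the probe used, and none of these 4 was called. A Pgk1 probe, like the Hif1a probe named above, lies on the opposite strand and was not counted. For Gapdh, 7 probes ranged from -0.66 to -0.15. Coordinates are those of the probe design, and which exon each probe lies in was not analysed here.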

How the data were processed

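The authors deposited Agilent Feature Extraction output (version 12.0.3.1, per the file headers), whose processed Cy3 signal is a background-subtracted linear intensity, not normalized between arrays. The authors also deposited a table on the log2 scale. Its columns rank probes as their own arrays do (Spearman at least 0.99999), with medians of 4.21 to 4.22, and its normalization is not given in the sources used here. Here each intensity was put on the log2 scale relative to its array's 75th percentile. Outlier spots were dropped before the spots of each probe were averaged, which left out 49 probes. Genes were named through a RefSeq table (33797 of 56605 probes by accession, 9434 by symbol, 489 by synonym, and 12742 kept the file's name), and the 94 probes of the 42 genes by the file's name. The brightest probe stood for a gene, tested where well above background on all 3 arrays of some group. Groups were compared in limma 3.58.1 (R 4.3.3, R package data.table, version 1.17.8) with 1 model of 12 arrays and Benjamini-Hochberg adjustment over 19753 genes, at a threshold of 0.05. The fit was tested on simulated data. Genes and lists were chosen with earlier results of these data known. Array-by-array values are given for genes called with a difference of at least 1 or called in the interaction. For neighbouring lists up to 3 called genes with the largest difference are named (some are not reported here), and likeness is given for up to 4 genes. Alternatives covered background correction (normexp, offset 50), quantile and median scaling, the authors' table, dim-probe filters, probe choice, the samples fitted, slide, replicate number, array weights and single arrays.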

Additional observations from a re-analysis of the deposited data

Results flagged for a closer look

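For 6 of the 42 genes the response to infarction differed between transgenic and wild-type hearts by the interaction term in limma. The response in transgenic minus that in wild-type hearts was -2.58 on the log2 scale for Slc16a3, -2.56 for Hk3, -1.12 for Pfkp and -1.05 for Pfkfb4. For Pfkfb2 it was 1.42 and for Pdk2 it was 1.17. Each of these calls was lost with slide as a block and without several single arrays. No outlier test was made within groups of 3.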

How the results depend on the processing

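Of 52 called results on single genes, 23 kept direction and call under each alternative run, all in WT+MI against WT (23 of 30), 29 lost the call under some alternative, and 0 reversed. Pfkl, not called, turned from -0.17 to 0.61 in WT+MI against WT with the mean over its probes, of which 1 differed by 1.65. In WT+MI against WT the number called ran from 24 to 32 over the alternatives, including left-out arrays, and the share of all genes from 20.7% to 61.1%. Leaving out single arrays gave 0 to 2 in TG-CCRR against WT (main 1) and 0 to 11 in TG-CCRR+MI against WT+MI (main 7). It gave 3 to 10 in TG-CCRR+MI against TG-CCRR (main 8) and 0 to 11 in the interaction (main 6). The share of all genes called then ran, in the same order, from 0.699% to 4.40%, 0% to 17.4%, 3.44% to 11.5% and 0.258% to 13.6%. In TG-CCRR against WT the number was 0 with normexp (2.17% of all genes) or without a filter on dim probes (0.552%). It was also 0 with slide as a block (1.61%) or on 1 slide (2.18%). It was 2 with the mean over probes (2.16%) or with the compared groups only (4.65%), and 3 with array weights (10.5%). In TG-CCRR+MI against WT+MI it was 11 with quantile normalization (13.0% of all genes) and 13 in the authors' deposited table (13.6%). It was 0 without a filter (0.0568%), with the compared groups only (0.00506%) or with slide as a block (0%). With array weights it was 19, where 40.0% of all genes were called. In TG-CCRR+MI against TG-CCRR it was 4 without a filter, 5 with the compared groups only, 1 with slide as a block, 0 on 1 slide and 12 (11 higher, 1 lower) with array weights, where 23.4% of all genes were called. In the interaction it was 0 without a filter (0.141% of all genes) or with slide as a block (0.0152%). With array weights it was 17, where 33.5% of all genes were called. An alternative chosen after seeing the data left out WT 1, WT+MI 1, TG-CCRR 1 and TG-CCRR+MI 3 together. It gave 0 in TG-CCRR+MI against WT+MI (0% of all genes) and 0 in the interaction (0.572%). It gave 1 in TG-CCRR against WT (1.78%), 9 in TG-CCRR+MI against TG-CCRR (9.22%) and 29 in WT+MI against WT (39.9%). Where an alternative called 0 genes, 3 to 20 of the 42 had an unadjusted p under 0.05 in limma. The causes were not tested.

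Replicate numbers do not pair the arrays: among 18 pairs with the same number the correlation of deviations ran from -0.26 to 0.11, and 2 of 12 arrays correlated best with their own number. With a replicate block the number called was 30 in WT+MI against WT (45.4% of all genes) and 0 in TG-CCRR against WT (1.64%). It was 4 in TG-CCRR+MI against WT+MI (8.15%), 4 in TG-CCRR+MI against TG-CCRR (5.95%) and 3 in the interaction (5.28%). Car9 in uninfarcted hearts was limited by signal over background. No single-slide value exists for TG-CCRR+MI against WT+MI or for the interaction.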
